A study of Mus musculus with 12 samples.

Results

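The heat shock chaperones described here are 10 genes, taken by their symbols from the 38087 genes of a table of exonic read counts of mouse liver. They are Hspa1a, Hspa1b, Hspa8, Hsph1, Dnaja1, Dnajb1, Hsp90aa1, Hsp90ab1, Hspb1 and Hspd1. Each symbol stood on 1 row, and all 10 were among the 14235 genes with enough counts to be tested. The livers came from germ-free male C57BL/6j mice, which are raised without microorganisms, aged 13 to 16 weeks. The GH group (6 livers) was given recombinant human growth hormone (GH) under the skin, 50 µg per mouse, and the PBS group (6 livers) was given phosphate-buffered saline. Both groups had 2 injections a day for 5 days, at ZT 2 and ZT 14 (hours after lights on), and the livers are labelled ZT02. Whether this dose was given at each injection or over each day is not stated in the labels. Human GH is known to bind the prolactin receptor as well as the GH receptor.

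Chaperones bind proteins that are unfolded or partly folded and keep them from clumping. HSP70 proteins do so in cycles of ATP binding and hydrolysis that J-domain proteins start and nucleotide exchange factors end, and HSP90 proteins take over late folding steps of many kinases and of steroid hormone receptors. Under heat or other damage to proteins, the transcription factor HSF1 is released from chaperones, forms trimers and binds heat shock elements, which are repeats of the unit GAA in alternating orientation. In mouse liver HSF1 is known to be active in a daily rhythm that follows body temperature and feeding.

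Promoter sequences are shown for 4 of these genes because the spacing of GAA units is what HSF1 reads, and for Chordc1, an HSP90 co-chaperone gene. Chordc1 was 1 of 9 related genes that fell in the GH livers (below), and those of the others are not shown. Bag3 had 2 units, and the windows of Ptges3, Sugt1, Dnajb9, Hspa5, Gadd45b and Atf3 held no match. A link between motif and change was not tested here either. RefSeq start sites (GRCm38.p6, the mm10 assembly) were on hand for 7 of the 10 genes, in windows of 250 bases before to 50 after the start. Each stretch printed runs 5′ to 3′ on the gene's strand from 170 bases before the start to 30 after it, with capitals for every match of at least 2 units.
Hspa1a: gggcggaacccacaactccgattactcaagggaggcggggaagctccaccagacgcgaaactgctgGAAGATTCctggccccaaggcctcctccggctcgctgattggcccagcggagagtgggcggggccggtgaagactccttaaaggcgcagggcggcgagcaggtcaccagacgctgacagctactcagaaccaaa
Hspa1b: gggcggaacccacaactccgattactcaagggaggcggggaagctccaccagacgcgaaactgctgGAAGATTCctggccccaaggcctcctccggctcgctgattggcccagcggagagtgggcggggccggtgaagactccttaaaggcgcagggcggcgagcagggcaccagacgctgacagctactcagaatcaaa
Hsph1: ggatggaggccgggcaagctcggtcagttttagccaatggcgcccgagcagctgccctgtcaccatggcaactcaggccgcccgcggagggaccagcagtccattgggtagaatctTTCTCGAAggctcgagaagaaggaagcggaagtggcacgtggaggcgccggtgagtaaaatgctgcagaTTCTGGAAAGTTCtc
Hspd1: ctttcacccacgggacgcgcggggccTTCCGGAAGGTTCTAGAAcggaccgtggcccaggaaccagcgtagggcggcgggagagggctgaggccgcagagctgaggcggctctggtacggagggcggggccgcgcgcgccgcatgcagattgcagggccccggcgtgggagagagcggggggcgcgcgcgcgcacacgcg
Chordc1: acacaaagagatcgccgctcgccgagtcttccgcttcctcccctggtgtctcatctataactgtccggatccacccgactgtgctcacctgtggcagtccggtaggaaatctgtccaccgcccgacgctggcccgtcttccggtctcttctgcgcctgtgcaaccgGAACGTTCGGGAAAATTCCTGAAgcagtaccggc
They lie at chr17:34972127-34972326 (Hspa1a, minus strand), chr17:34959209-34959408 (Hspa1b, minus strand), chr5:149636286-149636485 (Hsph1, minus strand, the downstream of its 2 starts), chr1:55087903-55088102 (Hspd1, minus strand, the downstream of its 2 starts) and chr9:18292097-18292296 (Chordc1, plus strand). The motifs searched were 2 units (GAANNTTC or TTCNNGAA), 3 units (GAANNTTCNNGAA or TTCNNGAANNTTC) and 4 units (GAANNTTCNNGAANNTTC or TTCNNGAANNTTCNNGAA), where N is any base. Each pair of forms covers both strands, matches may overlap, and longer motifs contain the shorter ones. The 2-unit motif was in the windows of 16.97% of the 27025 genes with one, the 3-unit motif in 0.662% and the 4-unit motif in 0.0296%, that is, in 8 genes. Hspd1 and Chordc1 were among those 8, and so was Hspe1, which encodes the partner of HSP60 and is read from the other strand of the same stretch of chromosome 1. In Chordc1 a pair of overlapping 4-unit matches makes 1 longer run. Hsph1 had 3 units after its start, and Hspa1a, Hspa1b, Dnaja1 and Hspb1 had 2 units. The windows of Dnajb1 held no match, which says only that these letters were not in them. The 200 bases shown for Hspa1a and Hspa1b were identical at 198 positions.

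None of the 10 chaperone genes changed between GH and PBS livers at an adjusted p under 0.05 in edgeR's quasi-likelihood test (0 higher and 0 lower), where 4.79% of all genes tested did, 2.27% higher and 2.52% lower. DESeq2 called 0 of the 10 as well, against 7.34% of all genes in its fit. At an unadjusted p under 0.05, edgeR and DESeq2 each gave 3 of the 10 (Hspa8, Hsph1 and Dnajb1, all lower), against 19.0% of all genes in edgeR, or 9.83% when only lower ones are counted. The 6 GH values and the 6 PBS values overlapped for each of the 10, while 3.18% of all genes had groups that did not overlap. The median log2 fold change (GH over PBS) of the 10 was -0.17, against 0.000537 over all genes tested, and 8 of the 10 were negative, against 49.9% of all genes; with libraries scaled by their totals alone Hsp90ab1 and Hspd1 turned negative too. The median of the 10 depended on single libraries. Leaving out PBS replicate 4 brought it to -0.08, GH replicate 6 to -0.09 and PBS replicate 3 to -0.10, whereas leaving out GH replicate 1 brought it to -0.26, PBS replicate 2 to -0.29 and PBS replicate 1 to -0.31. Since these are whole livers, fewer cells of a type and less RNA per cell cannot be told apart.

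**Figure D1:**
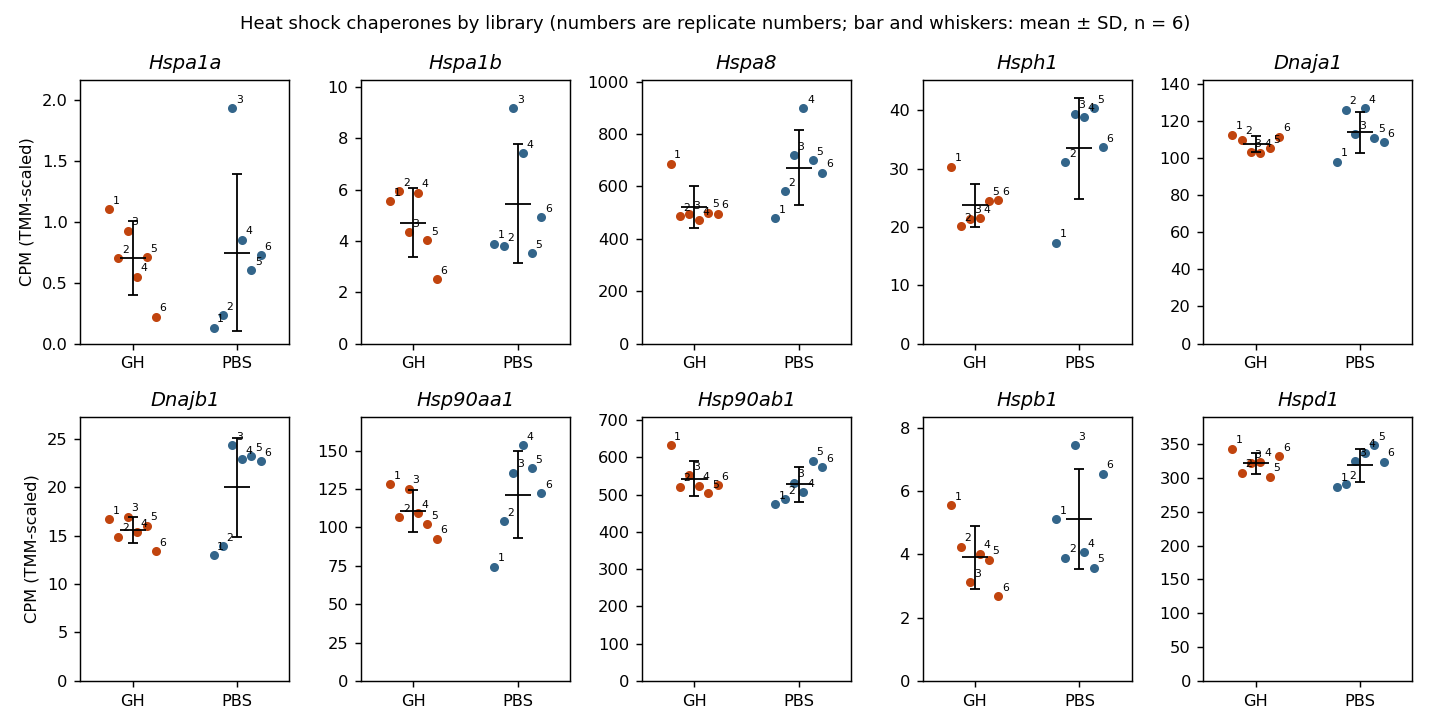
Each panel plots the counts-per-million (CPM, after TMM scaling, axis from 0) of 1 chaperone gene in each of the 6 GH (orange, left) and 6 PBS (blue, right) libraries, with the replicate number beside each point and the mean ± SD. The GH and PBS points overlap in each panel, and for Dnajb1 PBS replicates 3 to 6 lie between 22.7 and 24.3 CPM while PBS replicates 1 and 2 lie at 13.0 and 13.9 CPM.

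Among the HSP70 proteins, Hspa8 encodes HSC70, the form made all the time (ENSMUSG00000015656; chromosome 9, 40800984 to 40810087, plus strand). Its level had a lowest value of 470.1, a median of 495 and a highest of 687 CPM in GH livers, against 479, 676 and 899.8 CPM in PBS livers. GH replicate 1 stood above the other 5 GH libraries, which ended at 499 CPM, and 3 PBS libraries lay above all GH libraries, with PBS replicate 1 among the low GH values. The log2 fold change was -0.36 ± 0.13 (SE, n = 6 per group; edgeR adjusted p = 0.141), with a 95% interval of -0.65 to -0.08 that is not adjusted for the number of genes. The annotation places the snoRNA gene Snord14e in its span, overlapping 90 of its exonic bases, where reads cannot be told apart; Snord14e itself had 20.4 ± 2.02 CPM in GH livers and 29.1 ± 6.79 CPM in PBS livers (SD, n = 6 each).

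Hspa1a and Hspa1b encode the HSP70 that is induced by stress. They are neighbours on the minus strand of chromosome 17 (Hspa1a, ENSMUSG00000091971, 34969190 to 34972156; Hspa1b, ENSMUSG00000090877, 34956436 to 34959238), each with 1 exon, and their transcripts were 99.2% identical over 2201 aligned bases. The counting of reads that match both is not stated in the labels, and such reads may have been split or lost. The split between the genes is therefore uncertain, and so are the level of each and that of their sum. Hspa1b had a lowest value of 2.51, a median of 4.94 and a highest of 5.93 CPM in GH livers, against 3.53, 4.41 and 9.18 CPM in PBS livers. Hspa1a had a lowest value of 0.220, a median of 0.704 and a highest of 1.1003 CPM in GH livers, against 0.130, 0.665 and 1.93 CPM in PBS livers, and rested on 5 to 21 counts per library in GH and 3 to 40 in PBS. For both genes the groups overlapped, and PBS replicate 3 was the highest library of all. Gm20481, on the opposite strand, shares 564 exonic bases with Hspa1a and was near 0 (0.0166 CPM in GH livers and 0.0465 CPM in PBS livers). Their log2 fold changes were -0.21 ± 0.27 for Hspa1b and -0.09 ± 0.51 for Hspa1a (SE; edgeR adjusted p = 0.731 and 0.948), with intervals of -0.79 to 0.36 and -1.18 to 0.99. Summed into 1 feature they had 5.41 ± 1.54 CPM in GH livers and 6.21 ± 2.91 CPM in PBS livers (SD, n = 6 each), with a log2 fold change of -0.20 ± 0.29 (SE; adjusted p = 0.776). The log2 fold change of Hspa1a turned positive when PBS replicate 3 (0.45) or GH replicate 6 (0.10) was left out, and that of Hspa1b was -0.0050 without PBS replicate 3 and -0.08 without GH replicate 6; it was -0.11 without PBS replicate 4.

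Hsph1 encodes HSP110, a nucleotide exchange factor of HSP70 (ENSMUSG00000029657; chromosome 5, 149614287 to 149636376, minus strand). It had a lowest value of 20.1, a median of 23.0 and a highest of 30.3 CPM in GH livers, against 17.3, 36.3 and 40.4 CPM in PBS livers. In PBS livers 5 of 6 libraries lay above every GH library, while PBS replicate 1 lay below every GH library. The log2 fold change was -0.49 ± 0.18 (SE, n = 6 per group; edgeR adjusted p = 0.147, 95% interval -0.88 to -0.11), the most negative of the 10.

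The J-domain protein genes are Dnajb1, which encodes the stress-induced HSP40 (ENSMUSG00000005483; chromosome 8, 83608193 to 83612653, plus strand), and Dnaja1, whose product also serves HSP70 (ENSMUSG00000028410; chromosome 4, 40722150 to 40737149, plus strand). Dnajb1 had a lowest value of 13.4, a median of 15.7 and a highest of 16.9 CPM in GH livers, against 13.0, 22.8 and 24.3 CPM in PBS livers. The 6 GH libraries were close together, and the PBS libraries fell into 4 above all GH libraries and 2 low ones, with PBS replicate 2 (13.9 CPM) inside the GH range and PBS replicate 1 (13.0 CPM) below every GH library. Its log2 fold change was -0.36 ± 0.15 (SE, n = 6 per group; edgeR adjusted p = 0.199). Dnaja1 had 108 ± 4.35 CPM in GH livers and 114 ± 11.1 CPM in PBS livers (SD, n = 6 each; log2 fold change -0.08 ± 0.07 SE, adjusted p = 0.563), with an interval of -0.23 to 0.06. Its range was 103 to 113 CPM in GH livers and 98.0 to 127 CPM in PBS livers, which reached beyond the GH range on both sides. Smu1, on the opposite strand, shares 608 exonic bases with Dnaja1, and the use of strand in counting is not stated in the labels; Smu1 itself had 50.8 ± 5.13 CPM in GH livers and 52.6 ± 4.79 CPM in PBS livers (SD, n = 6 each).

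For HSP90, Hsp90ab1 encodes the beta form that is always made (ENSMUSG00000023944; chromosome 17, 45567775 to 45573271, minus strand) and Hsp90aa1 the inducible alpha form (ENSMUSG00000021270; chromosome 12, 110690605 to 110702728, minus strand). Hsp90ab1 had 543 ± 46.2 CPM in GH livers and 528 ± 47.1 CPM in PBS livers (SD, n = 6 each), a log2 fold change of 0.04 ± 0.08 (SE; edgeR adjusted p = 0.829) with an interval of -0.12 to 0.21. Its values ran from 504 to 632 CPM in GH livers and from 475 to 591 CPM in PBS livers, with GH replicate 1 the highest. Hsp90aa1 had a lowest value of 92.7, a median of 108 and a highest of 128 CPM in GH livers, against 74.4, 129 and 153 CPM in PBS livers. The PBS libraries of Hsp90aa1 reached beyond the GH range on both sides, and the log2 fold change was -0.13 ± 0.15 (SE, adjusted p = 0.681). Reads of Hsp90aa1 are hard to tell from those of a nearly identical pseudogene, Gm12346 (below).

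The other members, Hspb1 and Hspd1, belong to other chaperone families. Hspb1 encodes HSP27, a small heat shock protein that holds unfolded proteins without ATP (ENSMUSG00000004951; chromosome 5, 135887919 to 135889563, plus strand). It had a lowest value of 2.68, a median of 3.92 and a highest of 5.55 CPM in GH livers, against 3.58, 4.59 and 7.44 CPM in PBS livers, with a log2 fold change of -0.39 ± 0.20 (SE; edgeR adjusted p = 0.323). Hspd1 encodes HSP60, the chaperonin of mitochondria (ENSMUSG00000025980; chromosome 1, 55077835 to 55088243, minus strand). Its level was 322 ± 15.3 CPM in GH livers and 319 ± 24.7 CPM in PBS livers (SD, n = 6 each), and the log2 fold change of 0.01 ± 0.07 (SE; adjusted p = 0.942) had an interval of -0.13 to 0.16. Hspe1, on the opposite strand, shares 112 exonic bases with Hspd1 and had 67.9 ± 6.92 CPM in GH livers and 68.0 ± 6.19 CPM in PBS livers (SD, n = 6 each). The libraries of Hspd1 ran from 302 to 343 CPM in GH livers and from 287 to 348 CPM in PBS livers. Of the 10 genes, Hspd1 had the log2 fold change nearest to 0; it turned negative, to -0.02 at most, without GH replicate 1, PBS replicate 1 or PBS replicate 2.

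**Figure D2:**
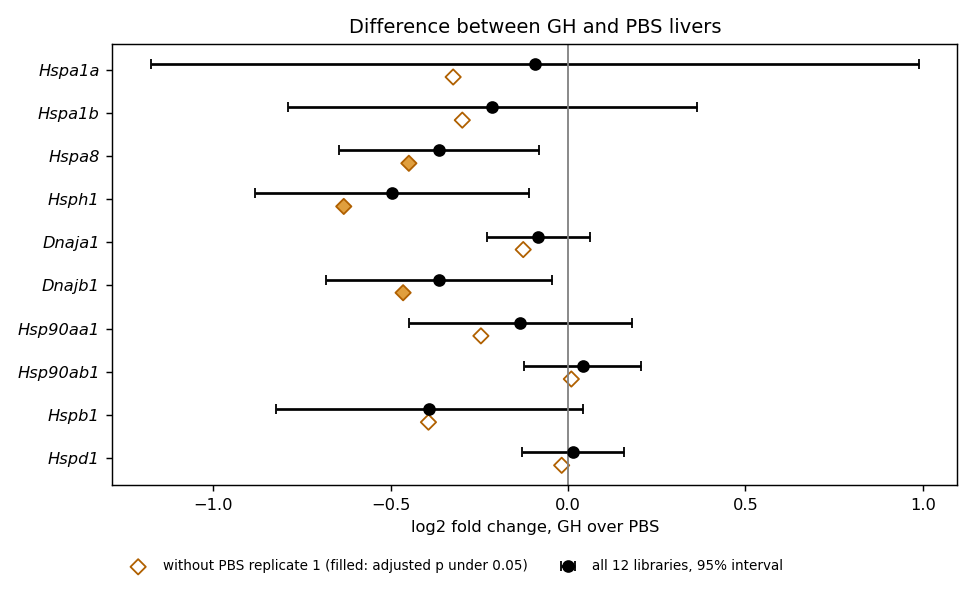
Log2 fold changes (GH over PBS, horizontal axis) of the 10 chaperone genes with all 12 libraries (black, bars for the 95% interval, not adjusted for the number of genes) and without PBS replicate 1 (diamonds, filled where the adjusted p was under 0.05). With 12 libraries no gene passed, and without PBS replicate 1 Hspa8, Hsph1 and Dnajb1 did.

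The call depended on 1 library. Without PBS replicate 1, edgeR called 3 of the 10 genes lower in GH livers, against 2.69% of all genes in that fit. These were Hsph1 (log2 fold change -0.63, adjusted p = 0.00303), Hspa8 (-0.45, adjusted p = 0.0418) and Dnajb1 (-0.46, adjusted p = 0.0428). In the 11 other fits with 1 library left out, 0 of the 10 were called, and the adjusted p reached 0.264 for Hsph1, 0.270 for Hspa8 and 0.353 for Dnajb1. Of all genes, those fits called 3.02% to 5.96%.

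Certain livers were low or high for several chaperone genes at once. Over the 10 genes, PBS replicate 1 was the lowest of the 12 libraries for 7 and among the lowest 3 for 8. PBS replicate 3 was the highest of the 12 for 4 genes, PBS replicate 4 for 3, PBS replicate 5 for 2 and GH replicate 1 for 1. PBS replicate 2 was among the lowest 3 for 5 genes and GH replicate 6 for 5. The mean centred log2 CPM of the 10 genes was lowest in PBS replicate 1 (-0.42), with GH replicate 6 next (-0.38), and highest in PBS replicate 3 (0.48). The deviations were not scaled, so genes with few counts and a wide spread weighed more in this mean. Hspa1a had 5 counts in GH replicate 6 and 40 in PBS replicate 3. The 10 genes did not all move together. Hspd1 in GH replicate 6 (332 CPM) lay above its means in GH (322 CPM) and PBS livers (319 CPM). Within groups, Pearson's r between members ran from -0.22 (Dnaja1 with Hspb1) to 0.89 (Hspa1a with Dnajb1). The coefficient of variation was lower in GH than in PBS livers for 10 of the 10 genes, as it was for 60.2% of all genes tested. The median ratio of the coefficients (GH over PBS) was 0.605 for the 10 and 0.880 for all genes, with no test of this difference. With 1 library left out, 8 to 10 of the genes had a lower coefficient in GH livers, and the median ratio ran from 0.429 without GH replicate 1 to 0.729 without PBS replicate 1.

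**Figure D3:**
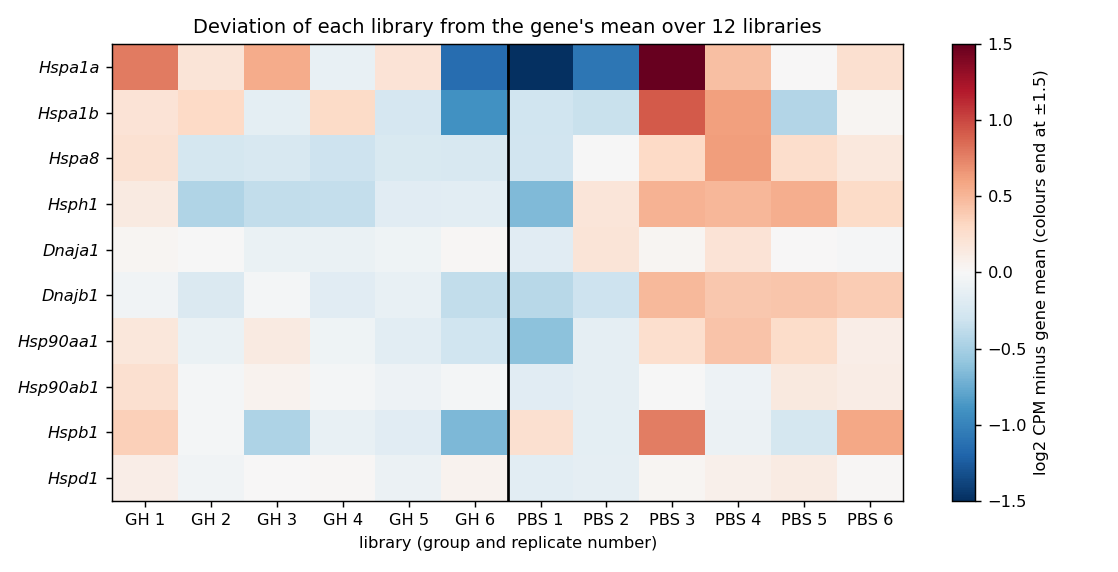
Colours give the log2 CPM of each chaperone gene (rows) in each library (columns, GH left and PBS right of the line) minus the gene's mean over the 12 libraries, with red above and blue below the mean and colours ending at ±1.5. PBS replicate 1 is blue for 9 of the 10 genes and PBS replicate 3 is red or near white throughout; GH replicate 6 is blue for the genes of the stress-induced HSP70.

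Levels between genes were compared as CPM per kb of annotated exons. Hsp90ab1 stood highest (181 ± 15.4 in GH livers and 176 ± 15.7 in PBS livers; SD, n = 6 each), next to Hspa8 (121 ± 18.9 in GH and 156 ± 33.0 in PBS) and Hspd1 (122 ± 5.79 in GH and 121 ± 9.36 in PBS). These were followed by Hsp90aa1 (28.1 ± 3.48 in GH and 30.9 ± 7.22 in PBS) and Dnaja1 (12.5 ± 0.504 in GH and 13.2 ± 1.28 in PBS). Dnajb1, Hspb1 and Hsph1 lay between 3.27 and 4.85 in GH and between 4.61 and 6.24 in PBS. The inducible genes Hspa1b (1.68 ± 0.480 in GH and 1.95 ± 0.828 in PBS) and Hspa1a (0.236 ± 0.103 in GH and 0.252 ± 0.217 in PBS) came last. Reads that match both of these genes may have been lost in counting, so their levels may be understated. The level of Hsp90aa1 has a like limit. Its reads are hard to tell from those of the pseudogene Gm12346, 99.5% identical to it over 2255 bases. In PBS livers Hsp90ab1 and Hspa8 had overlapping ranges, as had Hspa8 and Hspd1, and likewise Dnajb1, Hspb1 and Hsph1, and Hsph1 and Hspa1b. With the length of the longest coding transcript, a choice added after the data were seen, Hspa8 (281 in PBS) came before Hsp90ab1 (209), and Hsph1 (8.80) came before Dnajb1 (6.67) and Hspb1 (5.49).

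The genes most like the 10 were ranked by Pearson's r, over the 12 libraries and with group means removed, between a gene's log2 CPM and the mean of the 10 members' scaled values. These values rank 12851 genes and have no p. Gm12346 came highest (r = 0.961, Spearman's rho 0.965), a transcribed processed pseudogene on chromosome 11 that was 99.5% identical to Hsp90aa1 over 2255 bases, so reads of the pseudogene and of Hsp90aa1 are hard to tell apart. A SNORD14 gene (ENSMUSG00000096263, r = 0.931) lies within the span of Hspa8 on the same strand. The others were P4ha1 (0.937), a collagen prolyl hydroxylase subunit gene, 1110002L01Rik (0.930), Nans (0.909), a sialic acid synthase gene, Tgfb3 (0.905), Chid1 (0.891, a gene called higher in GH livers), Txnrd1 (0.888), a thioredoxin reductase gene, Stip1 (0.886), whose product links HSP70 to HSP90, and Sltm (0.882). Their rho ran from 0.825 for Tgfb3 to 0.965 for Gm12346, and without PBS replicate 1 and GH replicate 1, the libraries farthest from the middle of the pattern, r ran from 0.714 for Stip1 to 0.908 for Gm12346. With group means kept, 5 of these were still among the 10 most alike (Gm12346, Stip1, P4ha1, Txnrd1 and SNORD14). Of the related chaperone and regulator genes described next, 16 of 89 had an r above 0.7 (18.0%), against 351 of all 12851 (2.73%).

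Around the 10 chaperones, 91 tested genes of 11 related lists gave 1 higher and 9 lower in GH livers (2.27% and 2.52% of all genes), with a median log2 fold change of -0.08. The co-chaperones and HSP90 partners of the cytosol held 4 of the 9 lower genes, of 18 tested, with 0 higher and a median of -0.11. Chordc1, which encodes an HSP90 partner with a metal-binding CHORD domain and carries the marked run of units shown above, fell by 0.53 on the log2 scale (SE 0.09, with 6 livers per group; edgeR adjusted p = 0.00217). It had 20.7 to 25.04 CPM in GH livers (median 23.4), against 27.3 to 40.1 CPM in PBS livers (median 33.2), with no overlap. Ptges3, the p23 co-chaperone, fell by 0.34 (adjusted p = 0.0160), to 50.3 ± 5.87 CPM in GH livers, against 63.9 ± 3.97 CPM in PBS livers (SD, n = 6 each). Both calls held in each of the 12 fits that drop a library. Bag3, an HSP70 co-chaperone of autophagy (log2 fold change -0.56, adjusted p = 0.0492), and Sugt1, an HSP90 co-chaperone (-0.22, adjusted p = 0.0436), passed only narrowly, in 3 and 4 of those 12 fits (highest adjusted p 0.111 and 0.100), and Bag3 had an adjusted p of 0.115 without both GH replicate 6 and PBS replicate 5 and of 0.0509 with size factors of the DESeq2 type in edgeR and Sugt1 one of 0.175 without a filter on low counts.

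**Figure D4:**
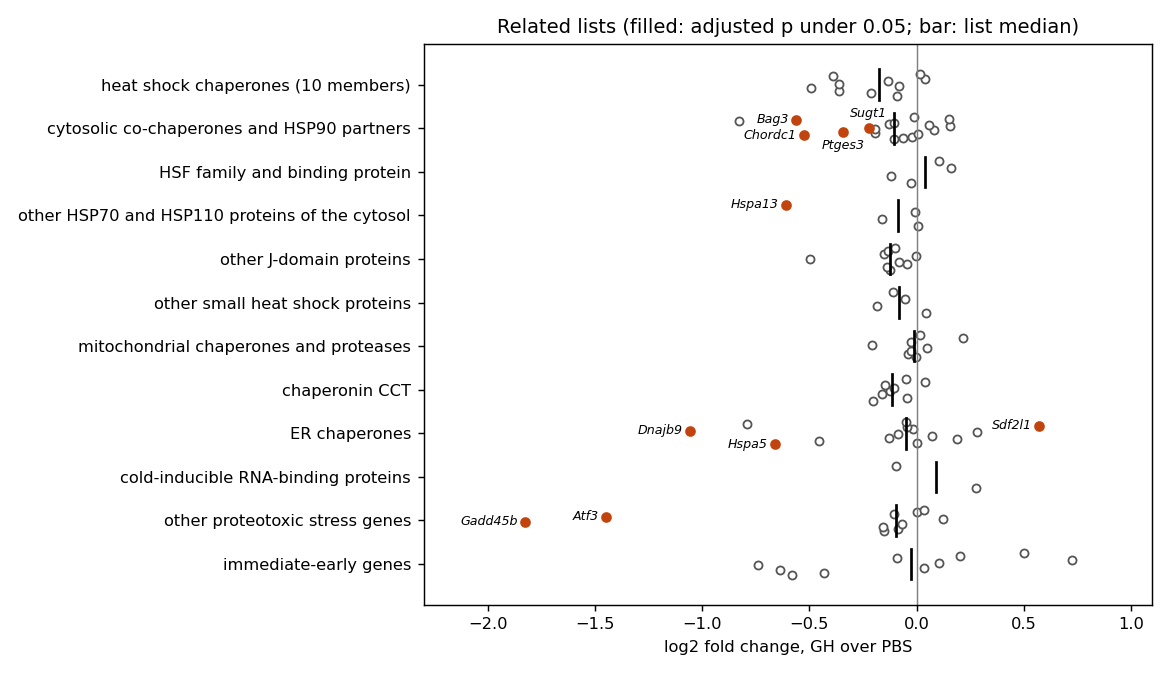
Log2 fold changes (GH over PBS, horizontal axis) of the 10 heat shock chaperones (upper row) and of the tested genes of 11 related lists, filled and named where the adjusted p was under 0.05, with a bar at each list's median. Filled points are 9 genes lower and 1 gene higher in GH livers, with Dnajb9 and Hspa5 among the lower and Sdf2l1 the higher.

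Of 4 tested genes listed with the other HSP70 and HSP110 proteins 1 fell (median -0.09). This was Hspa13, whose product is known from microsomes rather than the cytosol, with 36.7 ± 3.15 CPM in GH livers and 56.1 ± 12.9 CPM in PBS livers (SD, n = 6 each; log2 fold change -0.61 ± 0.12 SE, edgeR adjusted p = 0.0107). Hspa4 and Hspa4l, which encode HSP110-type exchange factors like HSPH1, had log2 fold changes of -0.16 and -0.01 (adjusted p = 0.143 and 0.974). None of the 9 other J-domain genes passed (0 higher and 0 lower, 4 at an unadjusted p under 0.05), though all 9 had negative log2 fold changes with a median of -0.12. For this and the other lists, the shares of all genes tested were 4.79% called, 19.0% at an unadjusted p under 0.05 and 49.9% negative. Of the J-domain genes, Dnajb4 had 28.7 ± 4.12 CPM in GH livers and 40.6 ± 10.2 CPM in PBS livers (SD, adjusted p = 0.0952). Dnajc5 and Dnajb6 had log2 fold changes of -0.13 and -0.15 (adjusted p = 0.185 and 0.186). The 8 subunits of the chaperonin CCT, which folds actin and tubulin, likewise gave 0 calls (3 at an unadjusted p under 0.05) with a median of -0.12, with Tcp1 at -0.20 (adjusted p = 0.0955), Cct6a -0.15 (0.171) and Cct4 -0.13 (0.258). DESeq2 called 1 of the 9 J-domain genes, Dnajb4 (lower), and 0 of the 8 CCT genes, against 7.34% of all genes in its fit.

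The genes for HSF1 and its relatives gave 0 calls of 4 (0 at an unadjusted p under 0.05; median 0.04), with log2 fold changes of 0.10 for Hsbp1, which encodes a protein that binds HSF1, -0.12 for Hsf2 and 0.16 for Hsf4 (edgeR adjusted p = 0.342, 0.507 and 0.574). DESeq2 called 0 of these 4 too. The gene for HSF1 itself, looked up outside the naming rule, had 9.34 CPM in GH livers and 9.51 CPM in PBS livers (adjusted p = 0.931 for Hsf1). Small heat shock proteins other than HSPB1 gave 0 of 4 (0 at an unadjusted p under 0.05 and 0 in DESeq2; median -0.08), with Hspb8 at 164 ± 59.6 CPM in GH livers and 187 ± 26.6 CPM in PBS livers (SD, n = 6 each; adjusted p = 0.677), and Cryab and Hspb6 at log2 fold changes of -0.11 and 0.04 (adjusted p = 0.822 and 0.929). Chaperones and proteases of mitochondria gave 0 of 8 (1 at an unadjusted p under 0.05; median -0.01). Of these Clpp, a protease subunit gene, stood at 0.22 on the log2 scale (adjusted p = 0.0672) and was called higher in DESeq2. Its groups were barely apart, with 32.4345 CPM the lowest in GH livers and 32.4323 CPM the highest in PBS livers. Over all related lists, 9 of 91 tested genes had groups that did not overlap, Tcp1 and Dnajc5 among them, against 3.18% of all genes. The exchange factor genes Grpel2 and Grpel1 had log2 fold changes of -0.21 and 0.05 (adjusted p = 0.659 and 0.684).

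Chaperones of the endoplasmic reticulum, most of which are governed by the unfolded protein response, gave 1 higher and 2 lower of 14 (median -0.05). Of all genes, 2.27% were higher and 2.52% lower. DESeq2 gave 2 higher and 3 lower of the 14, against 7.34% of all genes in its fit in either direction. It added Pdia6 (higher) and Creld2 (lower), whose edgeR log2 fold changes were 0.28 and -0.79 (adjusted p = 0.0717 and 0.0547). Dnajb9, a J-domain co-factor of BiP, fell to 25.8 ± 3.52 CPM in GH livers, against 53.7 ± 17.3 CPM in PBS livers (SD, n = 6 each; log2 fold change -1.06 ± 0.18 SE, edgeR adjusted p = 0.00594). Hspa5, which encodes BiP, the HSP70 of that compartment, fell to 592 ± 76.6 CPM in GH livers, against 936 ± 230 CPM in PBS livers (adjusted p = 0.0193). Sdf2l1, another BiP partner, rose by 0.57 (adjusted p = 0.0279) and was called in 4 of the 12 fits that drop a library (adjusted p up to 0.0676), while Dnajb9 and Hspa5 kept theirs in 12 of 12. Without both GH replicate 6 and PBS replicate 5, which stood apart from the rest, Hspa5 was not called (log2 fold change -0.53, adjusted p = 0.0572). Without a filter on low counts Hspa5 and Sdf2l1 had adjusted p of 0.0709 and 0.0569.

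Of 10 other genes of stress to proteins 2 fell and 0 rose (median -0.10), where 2.52% of all genes fell and 2.27% rose. The 2 that fell were Gadd45b, a growth arrest gene (0.471 ± 0.115 CPM in GH livers and 1.68 ± 1.28 CPM in PBS livers; SD, n = 6 each; edgeR adjusted p = 0.0190), and Atf3, a transcription factor of the integrated stress response (0.410 ± 0.166 CPM in GH livers and 1.14 ± 0.630 CPM in PBS livers; adjusted p = 0.0438). Leaving out GH replicate 2 took the call of Gadd45b (adjusted p = 0.0506), and Atf3 passed in 3 of the 12 fits (highest adjusted p 0.110) and not without both GH replicate 6 and PBS replicate 5 (adjusted p = 0.0588). Of the lower genes of all lists that had a promoter window, Chordc1 matched the 4-unit motif and Bag3 the 2-unit motif. The windows of Ptges3, Sugt1, Dnajb9, Hspa5, Gadd45b and Atf3 held no match. Of all genes with a window, 16.97% matched the 2-unit motif. Hspd1 and Hspe1, which also matched the 4-unit motif, had log2 fold changes of 0.01 and -0.0025. A link between motif and change was not tested. For Txnrd1, the third by p, the log2 fold change was -0.11, with an adjusted p of 0.402. None of 10 immediate-early genes passed (2 at an unadjusted p under 0.05; median -0.03), among them Dusp1 (log2 fold change 0.73), Jun (-0.64) and Fos (-0.58), with adjusted p of 0.131, 0.203 and 0.422; DESeq2 called Dusp1 higher. The cold-induced RNA-binding protein genes Cirbp and Rbm3, which move against heat shock genes with body temperature, had log2 fold changes of 0.28 and -0.10 (adjusted p = 0.196 and 0.639; 0 of 2 called in edgeR and 0 in DESeq2, 1 at an unadjusted p under 0.05).

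The libraries held 19915346 to 23074700 counts in GH livers and 19523104 to 23278931 in PBS livers. The 10 chaperone genes took 0.150% to 0.188% of the counts in GH livers and 0.149% to 0.214% in PBS livers. GH replicate 6 and PBS replicate 5 stood apart on principal components. Without both, 0 of the 10 chaperones were called, against 7.18% of all genes in that fit. At an unadjusted p under 0.05, 0 of the 10 passed there. Summed levels of hepatocyte markers, of which 0 of 5 were called, ran from 71489 to 95416 CPM in GH livers and from 89732 to 107264 CPM in PBS livers. Most of this sum was the marker Alb, which alone held 4.95% to 6.71% of the counts in GH livers and 6.66% to 8.36% in PBS livers. Erythroid markers (1 of 4 called, higher) ran from 196 to 392 CPM in GH and from 77.2 to 338 CPM in PBS, and stellate cell and fibroblast markers (1 of 6 called, lower) from 324 to 393 CPM in GH and from 354 to 414 CPM in PBS. Kupffer cell (5), sinusoidal endothelium (5) and cholangiocyte (4) markers were all tested and gave 0 calls. Of the lymphocyte, neutrophil, and gut, pancreas and fat markers only 1 of 6, 1 of 4 and 1 of 5 had enough counts to test, with 0 calls. Lymphocyte markers summed to 3.08 to 4.74 CPM in GH and 1.78 to 3.26 CPM in PBS, neutrophil markers to 0.472 to 2.10 CPM in GH and 0.702 to 3.12 CPM in PBS, and gut, pancreas and fat markers to 9.32 to 22.8 CPM in GH and 16.4 to 23.2 CPM in PBS, and the pancreatic protease gene Prss2 was at 0 in all libraries. The part of these differences in the chaperone values was not tested.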

How the data were processed

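Liver RNA was depleted of ribosomal RNA, made into stranded libraries and sequenced from both ends, per the labels' protocols. The submitters' processing notes name STAR 2.4.0i and mm10. The counter, its annotation and strand setting, and how it handled multi-mapping reads are not given here. The authors deposited raw counts of exonic reads per gene, without normalization. No other column of per-sample values was present.

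Genes were filtered with filterByExpr (minimum count 10), scaled by TMM and tested in R 4.3.3 with edgeR 4.0.16 (robust quasi-likelihood F test, group as the only term, 6 GH and 6 PBS libraries, two-sided, Benjamini-Hochberg over 14235 genes, threshold 0.05). An adjusted p is from this test unless DESeq2 1.42.0 is named. CPM use the TMM-scaled totals; log2 CPM for ranking used a prior count of 2. SE are the absolute log2 fold change over the square root of F. Intervals use that SE and the t quantile of the fit's degrees of freedom. The pipeline was tested on simulated data. Coordinates and lengths are from GENCODE M21 (mm10), promoters from RefSeq GRCm38.p6, and identities from blastn 2.17.0.

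The members, lists and tests were chosen with earlier results of these data known, so they are not independent of them. Named genes were the 10 members, of each related list those called and, below 3, the next by p up to 3, and the 10 genes most alike. List genes were matched by symbol (93 of 94; Hspa14 stood on several identifiers), and Hspa1l and Hspb7 were too low to test. The labels do not say that samples came from separate animals, so the p-values measure only sample-to-sample spread, which may be technical. No 2 libraries of a group agreed within counting noise (chi-square per degree of freedom 8.28 to 68.9 over 30 pairs). Alternatives were DESeq2, other scalings, no filter, a replicate block, libraries left out and the summed Hspa1 pair.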

Additional observations from a re-analysis of the deposited data

Results flagged for a closer look

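Hspa8 in GH replicate 1 had 687 CPM, far above the next GH library at 499 CPM, a gap of 0.865 of the range of the 6 GH libraries. Without GH replicate 1 the log2 fold change of Hspa8 was -0.46 (adjusted p = 0.0605). Hsp90ab1 in the same library had 632 CPM, with the next GH library at 552 CPM, a gap of 0.631 of the range; without it the log2 fold change was -0.01 (adjusted p = 0.978). These are 2 of 20 groups of 6 examined, and chance alone sets a library apart in about 1 of 20. The part of that library's quality or handling was not tested.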

How the results depend on the processing

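Of the 10 chaperones, 0 were called with DESeq2, with size factors of the DESeq2 type in edgeR, with library totals alone, with no filter, with a replicate block, or without GH replicate 6 and PBS replicate 5. Of all genes, these fits called from 2.34% with no filter to 7.34% with DESeq2. With 1 library left out the number called lower ran from 0 to 3, the 3 being those without PBS replicate 1, and the number called higher was 0. The log2 fold change turned for Hspa1a with the replicate block (0.043) and without both GH replicate 6 and PBS replicate 5 (0.045), and for Hsp90ab1 (-0.018) and Hspd1 (-0.046) with library totals, where the median of all genes shifted to -0.06. With 1 library left out it ran from -0.32 to 0.45 for Hspa1a, from -0.0066 to 0.074 for Hsp90ab1 and from -0.018 to 0.038 for Hspd1, and for Hsp90ab1 it was 0.083 without both GH replicate 6 and PBS replicate 5.

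Over the whole table, 359 genes were called lower and 323 higher in GH livers. DESeq2 gave 554 lower and 504 higher, library totals 658 lower and 211 higher, and the replicate block 211 lower and 180 higher. Without GH replicate 6 and PBS replicate 5, 504 were lower and 518 higher. With 1 library left out the counts ran from 241 to 444 lower and from 193 to 410 higher, the number higher being low without GH replicate 1 (194), GH replicate 2 (193), PBS replicate 3 (208) or PBS replicate 6 (203). In the related lists, library totals gave 15 lower and the replicate block 5 lower, with 6 to 10 when 1 library was left out. The number higher was 4 with DESeq2, 3 without GH replicate 6 and PBS replicate 5, 0 with no filter and 0 with the block, and 0 to 3 when 1 library was left out. Under the block Sugt1, Bag3, Sdf2l1, Gadd45b and Atf3 lost their calls (adjusted p = 0.129, 0.104, 0.0804, 0.0544 and 0.0830). The pairing check gave correlations of -0.17 to 0.16 between same-numbered samples, and 1 of 6 GH samples matched its own number best. These values do not show whether same-numbered samples were handled together, which the labels do not state. The cause of these changes was not tested.

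With group means kept, 5 of the 10 most alike genes were the same. Per kb of the longest coding transcript, an alternative chosen after seeing the data, the PBS levels were 209 for Hsp90ab1, 281 for Hspa8, 132 for Hspd1, 20.3 for Dnaja1 and 8.80 for Hsph1. Hspa1a had the fewest counts of the 10, 3 to 40 per library.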
